A study of Mus musculus with 22 samples.

Results

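Tumours that carried the SS18-SSX fusion and had also lost Smarcb1 were set against tumours that carried the fusion alone, using 7 of the 22 libraries of the series. The combined group held 4 libraries whose titles name both lesions and TATCre, a Cre recombinase protein fused to a cell-penetrating peptide (genotype SS18-SSX+/- and Snf5-/-, Snf5 being the older name of Smarcb1; tags N49, 78774, 78777 and 78780). The SS18-SSX group held the 3 libraries titled A, B and N2, with genotype SS18-SSX+/- and no Cre named in the title. All 7 tumours therefore carried the fusion, and the contrast asked how its transcriptome differs when Smarcb1 is lost as well. Members were chosen by title alone, without measured values. RNA came from fresh-frozen mouse tumour tissue and was sequenced from stranded mRNA libraries. The labels give neither age nor the cells that TATCre reached, and the strain field names a different C57BL number for each library. They do not state that each library came from a separate animal, so p-values measure the spread between these libraries, which may in part be technical. Several features of the design coincide: every combined library has number series 13879, a title naming TATCre and the Smarcb1 deletion, whereas every SS18-SSX library has number series 11361, no stated Cre and intact Smarcb1. These cannot be told apart, and every difference below is between the groups as a whole. In bulk tissue, fewer cells of a type and less RNA per cell cannot be told apart either.

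SS18 is a subunit of the BAF complex, the mammalian SWI/SNF remodeller that uses ATP to move nucleosomes and keeps enhancers and promoters accessible. In synovial sarcoma a translocation joins SS18 to an SSX gene, and the fusion protein enters the complex in place of normal SS18, carrying it to genes held silent by Polycomb. SMARCB1 is a core subunit of the same complex. Its loss defines malignant rhabdoid tumours and epithelioid sarcoma, and SMARCB1 protein is known to be low in synovial sarcoma, where the fusion displaces it.

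Total counts were 14893557 to 18062578 in the combined libraries and 8642648 to 16051501 in the SS18-SSX libraries, with SS18-SSX library A the shallowest. Across genes, which are not independent replicates, log2 levels correlated at r = 0.816 to 0.885 between combined libraries, at 0.889 to 0.969 between SS18-SSX libraries and at 0.740 to 0.841 between groups. Combined library N49 stood apart: its correlations with the other combined libraries were 0.816 to 0.842, and mitochondrially encoded genes took 4.12% of its counts against 0.785% to 2.09% in the other 6 libraries. SS18-SSX library A correlated at 0.910 with B and at 0.889 with N2, against 0.969 between B and N2. Protein-coding genes took 79.2% of counts in A, 86.3% in B and 93.7% in N2, and 83.3% to 88.2% in combined libraries. Levels below are CPM after TMM scaling, that is, counts divided by the scaled library total, listed for combined tumours N49, 78774, 78777 and 78780 and then for SS18-SSX tumours A, B and N2. Xist, transcribed from the inactive X chromosome, had 7.05, 12.5, 11.2 and 978 CPM in combined tumours, against 796, 1163 and 2569 CPM in SS18-SSX tumours. Together with the Y-linked genes below, 3 combined libraries thus differed in sex-linked transcripts from 78780 and from the SS18-SSX libraries.

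Smarcb1 (ENSMUSG00000000902, chr10:75896769-75921617, minus strand, mm10) followed the labels in every library. It had 3.67, 3.32, 3.17 and 2.66 CPM in combined tumours, against 97.2, 112 and 84.8 CPM in SS18-SSX tumours. The log2 fold change, combined over SS18-SSX as throughout, was -4.93 ± 0.25 (SE), with an adjusted p of 0.00104 in edgeR's quasi-likelihood test with Benjamini-Hochberg adjustment, the source of every adjusted p below. Leaving out any 1 of the 7 libraries kept the call and moved the value between -5.04 and -4.81. Ss18 had 89.2, 131, 168 and 121 CPM in combined tumours and 77.0, 90.4 and 148 CPM in SS18-SSX tumours (0.28 ± 0.32, adjusted p = 0.581). Whether reads of the fusion transcript were counted under this mouse gene was not tested. Tle1, a Groucho-family corepressor that pathologists stain for in synovial sarcoma, was abundant in both groups, with 159.7, 188, 151 and 184 CPM in combined tumours and 210.4, 278 and 256 CPM in SS18-SSX tumours. The groups did not overlap, but the difference missed the threshold (-0.54 ± 0.23, adjusted p = 0.153).

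**Figure D1:**
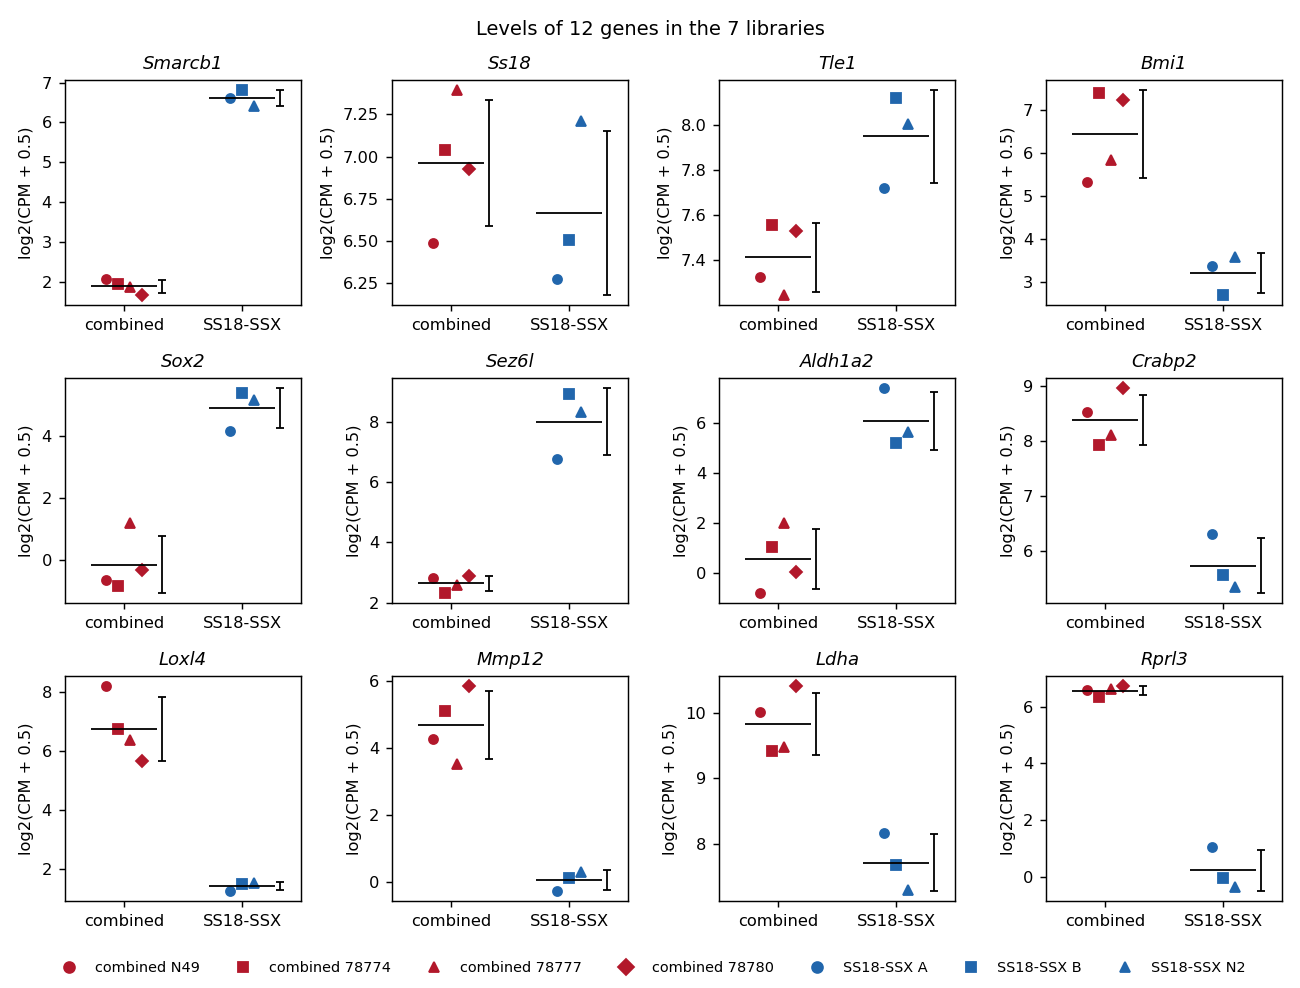
Levels of 12 genes as log2(CPM + 0.5), with combined tumours left of SS18-SSX tumours. Each symbol is 1 library, lines are group means and bars are 1 SD (n = 4 and n = 3). Each panel has its own axis range. Smarcb1 and 9 other genes separate the groups without overlap and passed the test, Tle1 separates them without passing it, and Ss18 overlaps.

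Of 16262 genes tested, 765 were higher in combined tumours (4.7%) and 760 lower (4.67%) at an adjusted p below 0.05, together 9.38%. With upper-quartile scaling in place of TMM the split was 540 higher and 825 lower. In 14.8% of genes every combined library lay above every SS18-SSX library, and in 14.8% every one lay below. The calls rested heavily on single libraries. Without combined N49 there were 1853 higher and 1683 lower, without 78774 77 and 214, without 78777 303 and 702, and without 78780 162 and 296. Without SS18-SSX library A 23 were higher and 174 lower. Without B 0 were higher and 1 lower (3223 genes at an unadjusted p below 0.05), and without N2 1 was higher and 2 lower (4085 at an unadjusted p below 0.05). Of the 1525 called genes 1503 kept their sign in all 7 of these fits, but only Smarcb1 kept its call in all 7, and Rprl2 and Gm15459 kept theirs in 6. Every other call below was lost both without B and without N2, and the number of fits that kept it is given for the genes described in full.

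**Figure D2:**
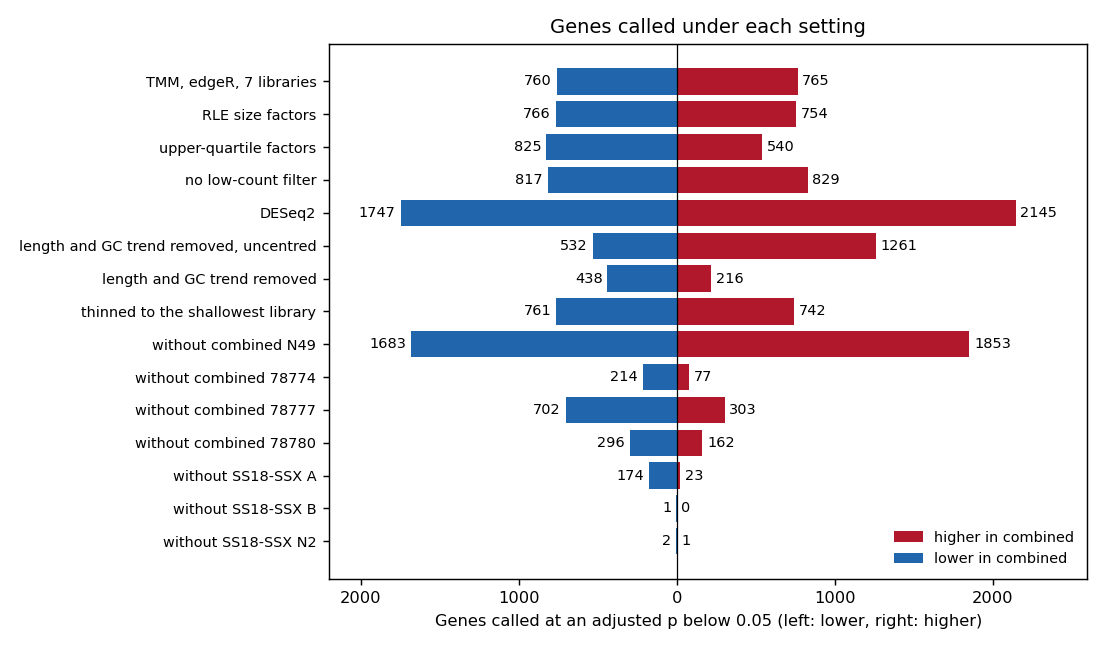
Number of genes called at an adjusted p below 0.05 under each setting, with genes higher in combined tumours to the right and genes lower to the left. Counts fell to 0 higher and 1 lower without SS18-SSX library B, and were largest with DESeq2, at 2145 higher and 1747 lower.

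Fold changes between the groups moved with transcript length and base composition, although single libraries did not all follow their group. Genes called higher had a median transcript length of 2377 bases and GC content of 44.7%, and genes called lower 4417 bases and 51.2%. Among genes split into 10 equal bins by length, the median log2 fold change in the shortest bin was 0.81, with 168 called higher and 23 lower. In the longest bin it was -0.42, with 27 called higher and 179 lower. The median log2 deviation from each gene's mean in the shortest bin was -0.065 in combined N49, against 0.23 to 0.63 in the other combined libraries. In the bin of lowest GC it was -0.39 in A and -0.47 in B but 0.16 in N2. In the bin of highest GC it was 0.35, 0.44 and -0.18 in the same order, against -0.18 to -0.075 in combined libraries. Processed pseudogenes, short copies of spliced mRNAs, were called higher 27 times and lower 3 times. With each library's trend on length and GC removed, an alternative chosen after seeing the data, 216 genes were higher (1.33% of those tested) and 438 lower (2.69%), of which 190 and 410 were also called without it. An earlier version of this removal, in which the trends were not centred, gave 1261 higher and 532 lower and shifted the median log2 fold change of all genes to 0.35, against 0.04 in the fit as reported. Of 16 tested noncoding RNAs that lack a poly(A) tail 2 were called (12.5%, against 4.7% of all genes), Rprl2 and Rprl3, annotated as ribonuclease P RNA-like, both higher. The 16 summed to 135349 CPM in SS18-SSX library A, 47240 in B and 14719 in N2, and to 56053 to 94683 CPM in combined libraries. Rprl3 had 96.0, 80.5, 97.3 and 106 CPM in combined tumours, against 1.56, 0.478 and 0.284 CPM in SS18-SSX tumours (7.02 ± 0.64, adjusted p = 0.0110, kept in 5 of the 7 fits). Rprl2 had 34.4 to 43.2 CPM in combined tumours and 0.0568 to 0.222 CPM in SS18-SSX tumours (8.21 ± 0.50, adjusted p = 0.00191). The part of length, GC content and RNA class in the gene differences below was not tested beyond this removal.

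**Figure D3:**
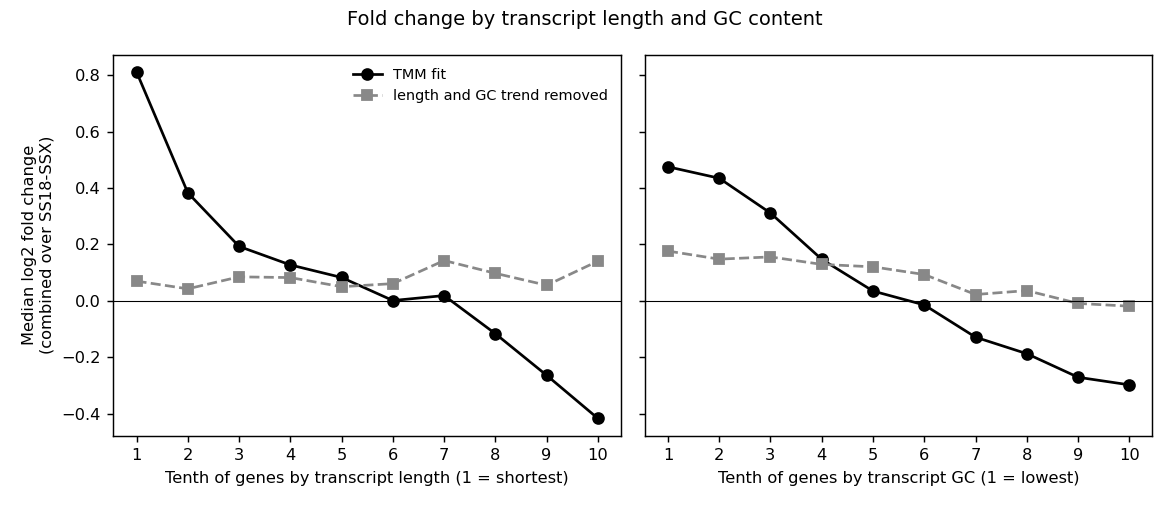
Median log2 fold change (combined over SS18-SSX) in 10 equal bins of genes by transcript length (left) and GC content (right). Black circles are the fit as reported and grey squares the fit with each library's length and GC trend removed. The black line runs from 0.81 in the shortest bin to -0.42 in the longest, and from 0.48 at the lowest GC to -0.30 at the highest.

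Among protein-coding genes with at least 10 CPM in the higher group and no overlap between groups, 4 of the 10 largest increases were Y-linked: Kdm5d, Eif2s3y, Ddx3y and Uty. Ddx3y, an RNA helicase, had 228, 247, 168 and 2.21 CPM in combined tumours, against 0, 0 and 0.0568 CPM in SS18-SSX tumours. Kdm5d and Eif2s3y had no count in any SS18-SSX library, which made them at least 979-fold and at least 951-fold higher in combined tumours against a floor of 3 counts over the SS18-SSX group. Outside the sex chromosomes, Loxl4, a lysyl oxidase that cross-links collagen and elastin, had 295, 106, 82.2 and 50.3 CPM in combined tumours, against 1.89, 2.33 and 2.39 CPM in SS18-SSX tumours (5.91 ± 0.74, adjusted p = 0.0189, kept in 5 of the 7 fits). Mmp12, the macrophage elastase, had 18.9, 34.2, 11.0 and 57.2 CPM in combined tumours, against 0.334, 0.598 and 0.739 CPM in SS18-SSX tumours (5.71 ± 0.75, adjusted p = 0.0193, kept in 5). In both genes the lowest combined library lay above the highest SS18-SSX library, as the choice of genes without overlap required. Mgarp, a mitochondrial protein induced in hypoxia, had 9.91 to 133 CPM in combined tumours and 0.222 to 0.909 CPM in SS18-SSX tumours (6.52 ± 1.16, adjusted p = 0.0277). The remaining 3 were uneven within the combined group. Klf14, a Krüppel-like transcription factor, had 1.91, 194, 103 and 189 CPM in combined tumours, against 0.445, 0 and 0.0568 CPM in SS18-SSX tumours. Fndc3c1, which lies on chromosome X, had 2.72, 5.78, 222 and 549.7 CPM in combined tumours and at most 0.0598 CPM in SS18-SSX tumours. Calb2, the calcium-binding protein calretinin, had 1.03, 7.82, 77.7 and 2.13 CPM in combined tumours and at most 0.111 CPM in SS18-SSX tumours.

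The 10 largest decreases included genes of neural and organ patterning. Rfx4, a transcription factor of neural tube and cilium development, had no count in the 4 combined libraries, against 6.56, 19.4 and 13.9 CPM in SS18-SSX tumours, which is at least 271-fold lower against a floor of 3 counts over the combined group. Adgrv1, a very large adhesion receptor of the inner ear and retina, had 2.28, 0.677, 0.667 and 1.37 CPM in combined tumours, against 76.3, 1141 and 1388 CPM in SS18-SSX tumours (-9.44 ± 1.15, adjusted p = 0.0181, kept in 5 of the 7 fits). Pou3f3, a neural POU-domain factor, had 0.147, 0.308, 2.11 and 0.685 CPM in combined tumours, against 43.04, 151 and 162 CPM in SS18-SSX tumours (-7.15 ± 0.95, adjusted p = 0.0193, kept in 5). In both genes SS18-SSX library A was the lowest of its group. It lay above every combined library, as the choice of genes without overlap required. Otof, which encodes otoferlin, the calcium sensor of hair cell synapses, had 0, 0, 2.94 and 0.0761 CPM in combined tumours, against 57.4, 312 and 186 CPM in SS18-SSX tumours. Nkx6-2, a homeobox factor of the ventral neural tube, was at 0 in 3 combined libraries and at 0.389 CPM in 78777, against 15.0, 40.8 and 14.7 CPM in SS18-SSX tumours. Foxa2 of the floor plate and endoderm, Mt3, a brain metallothionein, the posterior Hox gene Hoxa13, the meiotic cohesin Rec8 and the adaptor Shc3 made up the rest. None of these 5 exceeded 0.611 CPM in a combined library, and they reached 17.6, 20.3, 22.7, 44.5 and 44.5 CPM in SS18-SSX tumours in the same order. Library A was the lowest SS18-SSX library for all 5, at 0.778, 2.45, 3.34, 1.11 and 6.12 CPM in that order.

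Of 30 BAF subunits tested, 0 were called higher and 3 lower (10.0%, against 4.67% of all genes). The lower ones include Smarcb1, whose deletion defines the combined group. The median log2 fold change was -0.36 against 0.04 over all genes. With the length and GC trend removed it was 0.04 against 0.08. Besides Smarcb1 the lower subunits were Dpf3, a tissue-restricted reader of histone acetylation, and Bicra, a subunit of the non-canonical BAF complex. Dpf3 had 0.441, 0.246, 0.722 and 0.228 CPM in combined tumours, against 2.56, 7.23 and 7.44 CPM in SS18-SSX tumours (-3.78 ± 0.67, adjusted p = 0.0270, kept in 3 of the 7 fits). Bicra had 15.5, 7.69, 6.44 and 6.24 CPM in combined tumours, against 28.7, 42.7 and 26.7 CPM in SS18-SSX tumours (-1.87 ± 0.42, adjusted p = 0.0397, kept in 1). With the length and GC trend removed Bicra was at -1.01 and lost its call (adjusted p = 0.119). Leaving out 1 library gave 0 to 2 subunits higher and 1 to 5 lower, the upper figures without N49. In that fit 1853 of 15918 genes were called higher and 1683 lower. The catalytic subunit Smarca4 had 261, 202, 392 and 331 CPM in combined tumours and 201, 327 and 271 CPM in SS18-SSX tumours, and did not pass (0.15 ± 0.32, adjusted p = 0.771).

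Polycomb complexes, which silence developmental genes by modifying histones and which oppose BAF on chromatin, had 3 of 34 tested members higher (8.82%) and 4 lower (11.8%), with a median of -0.12. Over all genes 4.7% were higher and 4.67% lower. Bmi1, a ring-finger component of the repressive complex PRC1, had 39.7, 166, 56.2 and 149 CPM in combined tumours, against 9.90, 5.98 and 11.4 CPM in SS18-SSX tumours (3.49 ± 0.61, adjusted p = 0.0266, kept in 4 of the 7 fits). Eed, a core subunit of the methylating complex PRC2, had 46.9, 70.7, 57.4 and 79.7 CPM in combined tumours, against 23.8, 19.3 and 27.7 CPM in SS18-SSX tumours (1.43 ± 0.28, adjusted p = 0.0315, kept in 2). The histone-binding subunit Rbbp7 was also higher. Phc1, a PRC1 scaffold, was lower, at 30.6, 33.8, 33.1 and 27.8 CPM in combined tumours, against 62.1, 100.5 and 79.5 CPM in SS18-SSX tumours (-1.36 ± 0.24, adjusted p = 0.0266, kept in 3). Bcor, a subunit of variant PRC1, had 218, 186, 327 and 255 CPM in combined tumours, against 622, 1147 and 986 CPM in SS18-SSX tumours (-1.90 ± 0.35, adjusted p = 0.0291, kept in 2). Cbx6 and Jarid2 were lower too. Ezh2, the PRC2 methyltransferase, overlapped between groups (0.30 ± 0.44, adjusted p = 0.674). With the length and GC trend removed 2 members remained higher, Bmi1 and Eed, and 1 lower, Phc1. Over all genes 1.33% were higher and 2.69% lower in that fit. The list's median was then 0.03, against 0.08 over all genes. Leaving out 1 library gave 0 to 4 members higher and 0 to 8 lower, the upper figures without N49, where 1853 of 15918 genes were higher and 1683 lower.

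**Figure D4:**
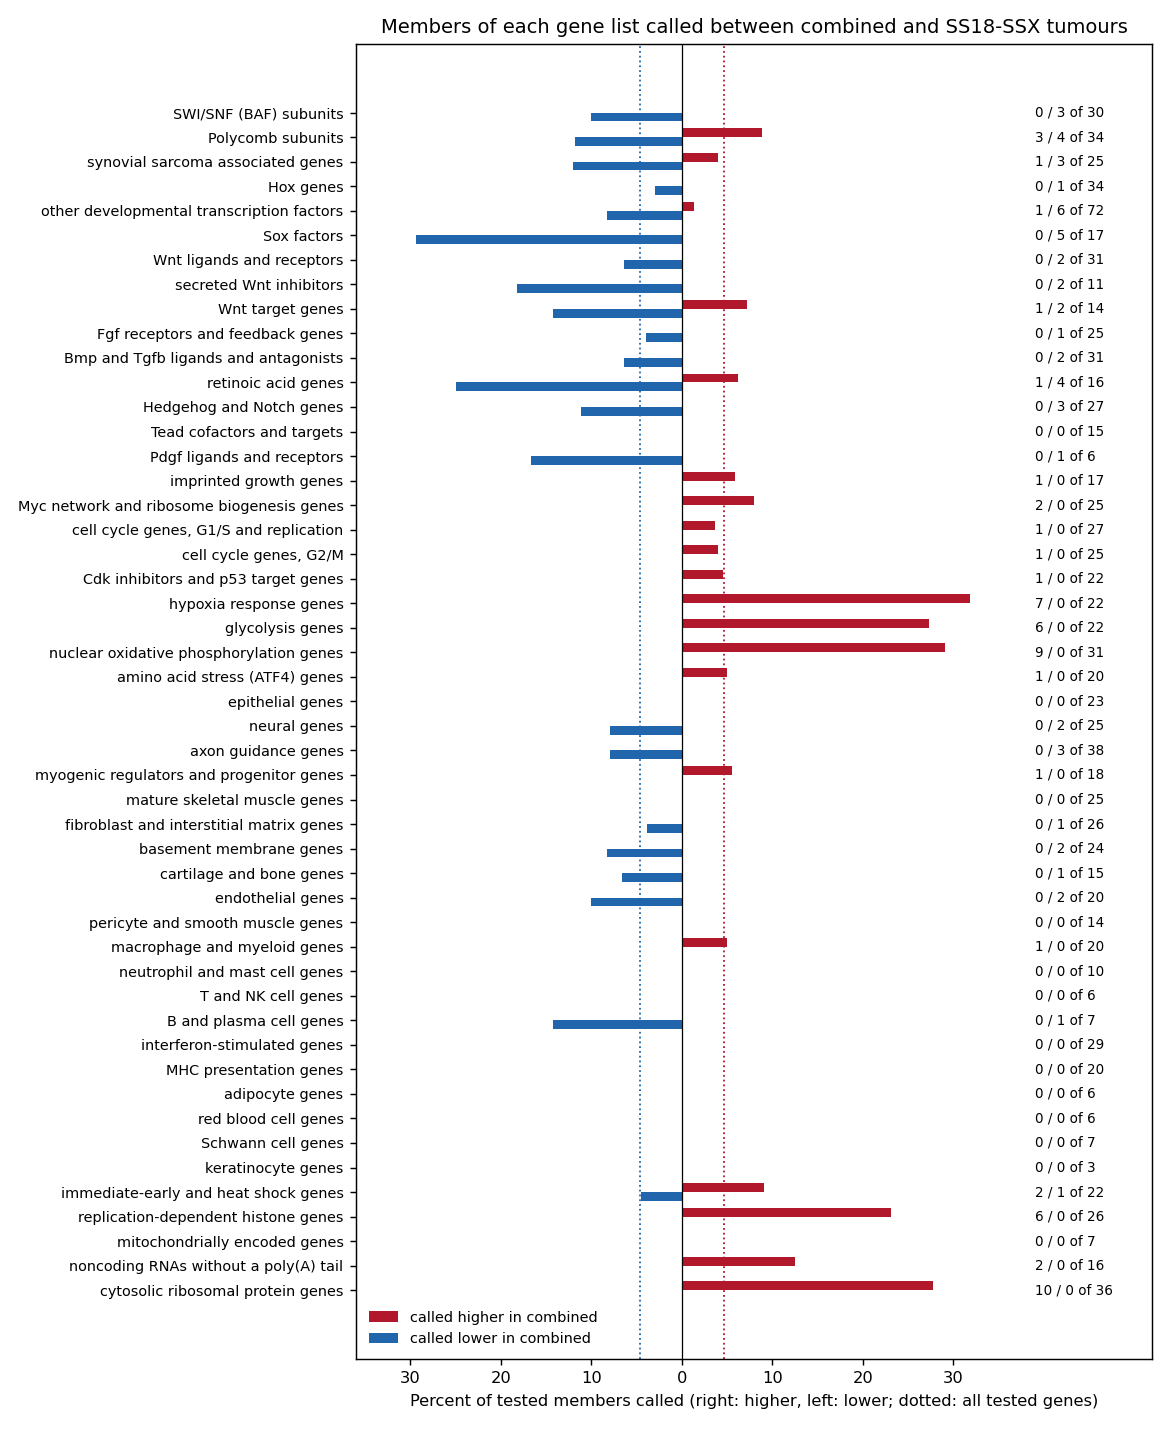
Percent of tested members called higher (right, red) or lower (left, blue) in combined than in SS18-SSX tumours for 49 gene lists, with counts as higher / lower of tested members. Dotted lines mark the share over all genes, 4.7% higher and 4.67% lower. Hypoxia, glycolysis, oxidative phosphorylation, ribosomal protein and histone lists exceed 20% higher, and Sox and retinoic acid lists reach 25% or more lower.

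Sox factors, transcription factors of stem and progenitor states, were the list with the highest share of lower members. Of 17 tested, 5 were lower (29.4%, against 4.67% of all genes) and 0 higher. Their median was -2.55, against 0.04 over all genes. Leaving out 1 library gave 0 to 6 lower members and 0 to 1 higher. Sox2, a neural and pluripotency factor that is also a target of the fusion in synovial sarcoma, had 0.147, 0.0615, 1.78 and 0.304 CPM in combined tumours, against 17.5, 41.6 and 35.1 CPM in SS18-SSX tumours (-5.72 ± 1.06, adjusted p = 0.0298, kept in 2 of the 7 fits). Sox1, its close relative in neural progenitors, had 0.147, 0.615, 1.56 and 2.05 CPM in combined tumours, against 25.9, 126 and 107 CPM in SS18-SSX tumours (-6.30 ± 0.91, adjusted p = 0.0202, kept in 5). The cartilage factors Sox5 and Sox6 moved the same way. Sox6 had 2.42, 7.88, 5.89 and 1.90 CPM in combined tumours, against 63.1, 69.1 and 75.8 CPM in SS18-SSX tumours (-3.93 ± 0.53, adjusted p = 0.0193, kept in 5). Sox9, which directs cartilage formation, had 1.85 to 7.34 CPM in combined tumours and 17.2 to 35.9 CPM in SS18-SSX tumours (-2.65 ± 0.57, adjusted p = 0.0371, kept in 1). After removal of the length and GC trend 4 of the 5 kept their call, and Sox9 stood at -2.51 with an adjusted p of 0.0507.

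Genes associated with synovial sarcoma had 1 of 25 members higher (4.0%) and 3 lower (12.0%), against 4.7% and 4.67% of all genes. Their median was -0.38, and 0.01 with the length and GC trend removed. Tbx3, a T-box repressor of limb development, had 20.6, 27.4, 14.9 and 17.0 CPM in combined tumours, against 89.7, 95.7 and 79.7 CPM in SS18-SSX tumours (-2.14 ± 0.27, adjusted p = 0.0189, kept in 5 of the 7 fits). Sox2 and Sox9 were the other 2 lower members. Of 72 other developmental transcription factors 1 was higher and 6 lower (8.33%), including Lhx6, Sim1 and Nkx6-1. Of 34 Hox genes 0 were higher and 1 lower (2.94%), Hoxa13, with a median of 0.42.

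Wnt signalling drives self-renewal through beta-catenin. Of its genes, 2 of 31 ligands and receptors (6.45%) and 2 of 11 secreted inhibitors (18.2%) were lower and 0 higher. Over all genes 4.67% were lower. Wnt16, a ligand, had 0.808, 10.7, 4.67 and 1.60 CPM in combined tumours, against 163, 169 and 82.7 CPM in SS18-SSX tumours (-4.95 ± 0.86, adjusted p = 0.0262, kept in 4 of the 7 fits). Among inhibitors, Wif1, which binds Wnt ligands, had 0.955 to 4.64 CPM in combined tumours and 10.7 to 93.2 CPM in SS18-SSX tumours (-4.59 ± 0.88, adjusted p = 0.0305, kept in 4), and Dkk3 was lower as well. Of 14 Wnt target genes 2 were lower (14.3%), the ubiquitin ligase Rnf43, which removes Wnt receptors from the cell surface, and Prdm1. The other called target rose: Myc, the growth-promoting transcription factor, had 31.6, 26.0, 29.1 and 37.3 CPM in combined tumours, against 8.90, 8.31 and 4.43 CPM in SS18-SSX tumours (2.10 ± 0.36, adjusted p = 0.0254, kept in 4). Axin2, the most widely used readout of the pathway, had 67.7, 119.8, 134 and 31.04 CPM in combined tumours, against 253, 296 and 198 CPM in SS18-SSX tumours, and did not pass (-1.50 ± 0.48, adjusted p = 0.0822).

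Retinoic acid genes had 4 of 16 members lower (25.0%, against 4.67% of all genes) and 1 higher (6.25%, against 4.7%), with a median of -0.90. Leaving out 1 library gave 0 to 5 lower members and 0 to 1 higher. Aldh1a2, the enzyme that makes retinoic acid in the embryo, had 0.0734, 1.54, 3.44 and 0.533 CPM in combined tumours, against 167, 36.4 and 48.4 CPM in SS18-SSX tumours (-5.87 ± 1.09, adjusted p = 0.0298, kept in 2 of the 7 fits). The receptor Rarb, itself a retinoic acid target, had 2.20, 1.54, 7.11 and 0.533 CPM in combined tumours, against 42.7, 34.5 and 38.0 CPM in SS18-SSX tumours (-3.74 ± 0.78, adjusted p = 0.0347, kept in 3). Its partner Rxra and Rdh10, the preceding enzyme of the pathway, were lower by less. Crabp2, which carries retinoic acid to its receptors, went the other way, at 368, 244, 274 and 501 CPM in combined tumours, against 78.2, 46.3 and 40.0 CPM in SS18-SSX tumours (2.66 ± 0.40, adjusted p = 0.0213, kept in 5). With the length and GC trend removed Crabp2 remained higher and 3 members lower, and Rxra was at -0.78 (adjusted p = 0.118).

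Hedgehog and Notch genes had 0 of 27 members higher and 3 lower (11.1%), with a median of -1.01. Boc, a Hedgehog co-receptor, had 20.7, 21.6, 29.0 and 7.46 CPM in combined tumours, against 155, 195 and 166 CPM in SS18-SSX tumours (-3.12 ± 0.43, adjusted p = 0.0193, kept in 5 of the 7 fits). The pathway's transcription factor Gli2 (-2.20 ± 0.40, adjusted p = 0.0287) and the receptor Notch2 (-1.59 ± 0.35, adjusted p = 0.0382) were also lower. Once the length and GC trend was removed they stood at -1.37 (adjusted p = 0.0695) and -0.66 (adjusted p = 0.142). The list's median was then -0.36, against 0.08 over all genes. Leaving out 1 library gave 0 to 8 lower members, the upper figure without N49, where 1683 of 15918 genes were lower in all. Of the remaining signalling lists, Fgf13 was the 1 called Fgf gene of 25 (4.0%) and Tgfb3 and Chrdl1 the 2 of 31 Bmp and Tgfb genes (6.45%). Pdgfc was the 1 of 6 Pdgf genes (16.7%). All were lower, against 4.67% of all genes, and 0 of 15 Tead cofactors and targets were called.

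Hypoxia response genes, which cells switch on through HIF transcription factors when oxygen is short, had the highest share of higher members: 7 of 22 (31.8%, against 4.7% of all genes), with 0 lower and a median of 1.39. Glycolysis genes followed, with 6 of 22 higher (27.3%), 0 lower and a median of 0.67. HIF binds DNA at a short core motif, ACGTG, and the promoters of the genes with the smallest p in each list that had an entry are shown for that reason. The 300-base windows run from 250 bases before to 50 after a transcription start in RefSeq, GRCm38.p6, and capitals mark ACGTG on either strand.
Slc16a3 (chr11:120948817-120949116, plus strand): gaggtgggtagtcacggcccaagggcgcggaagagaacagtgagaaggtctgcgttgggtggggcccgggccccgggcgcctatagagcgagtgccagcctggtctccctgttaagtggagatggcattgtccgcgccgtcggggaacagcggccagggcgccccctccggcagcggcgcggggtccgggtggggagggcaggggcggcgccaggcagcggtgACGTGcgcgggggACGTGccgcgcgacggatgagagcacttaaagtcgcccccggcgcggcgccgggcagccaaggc
Pgk1 (chrX:106186850-106187149, plus strand): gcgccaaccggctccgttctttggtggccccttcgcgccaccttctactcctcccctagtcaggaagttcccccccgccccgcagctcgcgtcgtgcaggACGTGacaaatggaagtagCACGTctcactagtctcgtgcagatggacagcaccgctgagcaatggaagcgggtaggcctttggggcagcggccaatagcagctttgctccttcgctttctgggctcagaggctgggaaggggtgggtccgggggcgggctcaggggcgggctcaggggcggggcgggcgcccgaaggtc
Higd1a (chr9:121857747-121858046, minus strand): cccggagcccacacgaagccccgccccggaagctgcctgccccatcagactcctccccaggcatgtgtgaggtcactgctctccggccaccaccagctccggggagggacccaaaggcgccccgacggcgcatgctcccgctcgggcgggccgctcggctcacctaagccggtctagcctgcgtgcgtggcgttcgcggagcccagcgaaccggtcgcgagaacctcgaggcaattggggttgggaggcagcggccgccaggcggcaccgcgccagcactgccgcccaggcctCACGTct
Ddit4 (chr10:59951721-59952020, minus strand): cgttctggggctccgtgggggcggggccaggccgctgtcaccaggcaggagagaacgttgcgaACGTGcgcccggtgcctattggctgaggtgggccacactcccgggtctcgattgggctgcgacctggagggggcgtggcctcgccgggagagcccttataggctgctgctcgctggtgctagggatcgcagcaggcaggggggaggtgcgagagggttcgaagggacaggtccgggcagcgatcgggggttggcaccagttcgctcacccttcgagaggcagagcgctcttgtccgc

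The motif was present in at least 1 window of 5 of the 5 called hypoxia genes with an entry and of 8 of 12 that were not called, and of 5 of the 6 called glycolysis genes and 8 of 15 that were not called. Of all 27025 genes with a promoter entry 21.8% had it, and of all 32851 windows 19.6%. A second form, GCGTG, was also searched on both strands and is not marked, and 32.4% of all windows held it. A match is a description and not a bound site. Slc16a3, the lactate exporter of glycolytic cells, had 282, 118, 40.1 and 218 CPM in combined tumours, against 10.8, 13.7 and 9.89 CPM in SS18-SSX tumours (3.84 ± 0.67, adjusted p = 0.0266, kept in 4 of the 7 fits). Pgk1, a glycolytic kinase, had 27.1, 32.4, 23.9 and 75.1 CPM in combined tumours, against 3.56, 4.54 and 7.84 CPM in SS18-SSX tumours (2.89 ± 0.55, adjusted p = 0.0304, kept in 3). Ldha, which makes lactate from pyruvate, was the most abundant of the called genes, at 1032, 681, 709 and 1356 CPM in combined tumours, against 287, 205 and 158 CPM in SS18-SSX tumours (2.12 ± 0.41, adjusted p = 0.0310, kept in 3). Every combined library lay above every SS18-SSX library for these 3 genes. Higd1a, a mitochondrial protein induced by HIF, had 29.7, 49.4, 26.9 and 62.5 CPM in combined tumours, against 8.79, 7.59 and 10.7 CPM in SS18-SSX tumours (2.22 ± 0.39, adjusted p = 0.0268, kept in 3). Ddit4, an inhibitor of mTORC1 under stress, had 111, 92.9, 108 and 192 CPM in combined tumours, against 40.6, 25.6 and 13.4 CPM in SS18-SSX tumours (2.25 ± 0.45, adjusted p = 0.0326, kept in 2).

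Vegfa and Car9, both classical HIF targets, did not pass. Vegfa, the angiogenic growth factor, had 343, 175, 43.8 and 206 CPM in combined tumours and 89.2, 142 and 95.9 CPM in SS18-SSX tumours (0.82 ± 0.60, adjusted p = 0.376). Car9, a carbonic anhydrase widely used as a hypoxia marker, stayed below 5 CPM in all 7 libraries (-0.33 ± 0.73, adjusted p = 0.786). With the length and GC trend removed 2 hypoxia genes and 4 glycolysis genes remained higher (against 1.33% of all genes), and with the uncentred version 9 and 8. In the fits that left out 1 library the counts ran from 0 to 9 and from 0 to 7.

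**Figure D5:**
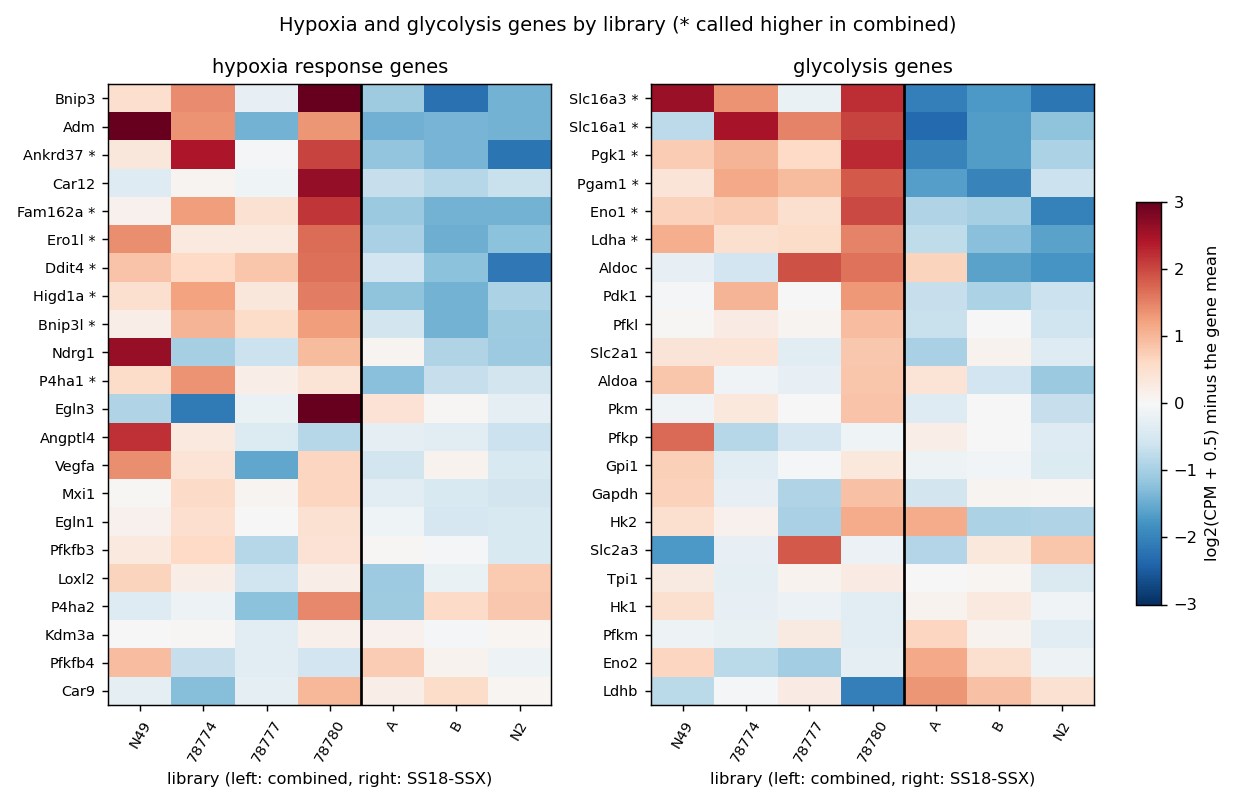
Level of each hypoxia (left) and glycolysis gene (right) in each library, as log2(CPM + 0.5) minus the gene's mean over the 7 libraries, with combined libraries left of the black line and SS18-SSX libraries right of it. Red is above and blue below the mean, the colour scale ends at 3 log2 units, and asterisks mark the 7 and 6 genes called higher in combined tumours. In the asterisked rows every combined library lies above every SS18-SSX library.

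Nuclear genes of oxidative phosphorylation had 9 of 31 members higher (29.0%, against 4.7% of all genes) and 0 lower, with a median of 0.92. Uqcrb, a subunit of respiratory complex III, had 35.2, 43.4, 44.8 and 50.2 CPM in combined tumours, against 10.7, 5.26 and 10.1 CPM in SS18-SSX tumours (2.33 ± 0.34, adjusted p = 0.0206, kept in 5 of the 7 fits). Cytosolic ribosomal protein genes had 10 of 36 higher (27.8%) and 0 lower, with a median of 1.69, and replication-dependent histone genes, whose mRNAs lack a poly(A) tail, 6 of 26 higher (23.1%) and 0 lower, with a median of 1.63. Hist1h2bc had 149, 247, 251 and 226 CPM in combined tumours, against 70.3, 42.9 and 44.3 CPM in SS18-SSX tumours (2.06 ± 0.32, adjusted p = 0.0218, kept in 5). These 3 lists are made of short transcripts, with median lengths of 1445, 1139.5 and 734 bases, and the shortest bin of all genes had 10.4% called higher. With the length and GC trend removed 3, 1 and 2 of their members were higher, against 1.33% of all genes. Uqcrb was at 0.78 there and lost its call (adjusted p = 0.129). Leaving out 1 library gave 0 to 13 oxidative phosphorylation, 0 to 25 ribosomal protein and 0 to 16 histone genes higher. The upper figures came without combined N49, where 1853 genes were called higher in all. Ribosomal protein and histone genes also have near-identical copies, and the labels do not say how reads fitting several places were handled. Rpl19 had only 3.08 to 9.82 CPM in combined tumours and 1.08 to 1.55 CPM in SS18-SSX tumours, so its value is uncertain.

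Cell cycle lists were called higher at 3.70% (G1/S and replication) and 4.0% (G2/M), near the 4.7% of all genes. Of 27 genes of G1/S and replication 25 had a positive fold change, and 1 was called, Ccne2, a cyclin of S phase entry, at 34.9, 168, 147 and 118 CPM in combined tumours, against 7.78, 12.2 and 24.7 CPM in SS18-SSX tumours (2.97 ± 0.64, adjusted p = 0.0375, kept in 1 of the 7 fits). Of 25 genes of G2/M 23 were positive and 1 was called, the mitotic kinase Cdk1 (2.16 ± 0.53, adjusted p = 0.0455). Leaving out 1 library gave 0 to 7 higher among the G1/S and replication genes and 0 to 4 among the G2/M genes. The upper figures came without combined N49, where 1853 of 15918 genes were higher and 1683 lower in all. Myc and the nucleolar chaperone Npm1 were the 2 called members of 25 Myc network and ribosome biogenesis genes (8.0%). Leaving out 1 library gave 0 to 11 higher, the upper figure without N49. Ccng1 was the 1 called of 22 Cdk inhibitor and p53 target genes (4.55%), and leaving out 1 library gave 0 to 3, the upper figure without N49. Among stress genes the chaperone Hspa8 was higher, at 382, 405, 554 and 679 CPM in combined tumours, against 116, 141 and 129 CPM in SS18-SSX tumours (1.97 ± 0.32, adjusted p = 0.0230, kept in 4), as was Hsp90aa1, 2 of 22 in all. The immediate-early gene Fosb was lower, at 6.54, 1.54, 1.72 and 2.05 CPM in combined tumours, against 42.3, 60.8 and 41.7 CPM in SS18-SSX tumours (-4.03 ± 0.59, adjusted p = 0.0202, kept in 5). It was the 1 lower member of that list (4.55%, with 9.09% higher). Leaving out 1 library gave 0 to 8 lower members, the upper figure without N49. Mest was the 1 called imprinted gene of 17 (5.88%), at 2.60 ± 0.67 (adjusted p = 0.0499), and Mthfd2 the 1 of 20 ATF4 targets (5.0%), both higher.

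Axon guidance genes had 3 of 38 members lower (7.89%, against 4.67% of all genes), 0 higher and a median of -0.94. Efnb2, an ephrin ligand, had 17.5, 14.2, 21.0 and 10.9 CPM in combined tumours, against 99.2, 151 and 210.0 CPM in SS18-SSX tumours (-3.27 ± 0.35, adjusted p = 0.0143, kept in 5 of the 7 fits), and the semaphorins Sema5a and Sema6a were lower too. All 3 calls remained with the length and GC trend removed, where the list's median was -0.53, and leaving out 1 library gave 0 to 9 lower members. Of 25 neural genes 2 were lower (8.0%). Sez6l, a membrane protein of neurons, had 6.54, 4.49, 5.50 and 6.85 CPM in combined tumours, against 108, 488 and 317 CPM in SS18-SSX tumours (-5.70 ± 0.53, adjusted p = 0.0110, kept in 5). Map2, a dendritic microtubule protein, had 1.90 to 11.4 CPM in combined tumours and 52.7 to 250.5 CPM in SS18-SSX tumours (-4.54 ± 0.71, adjusted p = 0.0223, kept in 5). Of 24 basement membrane genes Lama2, a laminin chain of muscle and nerve, and Col4a6, a collagen IV chain, were lower (8.33%). Lama2 had 12.3, 7.45, 8.00 and 9.82 CPM in combined tumours, against 56.6, 123 and 162 CPM in SS18-SSX tumours (-3.60 ± 0.40, adjusted p = 0.0159, kept in 5). Of 23 epithelial genes 0 were called, with a median of -0.98. Library 78777 was the farthest from the other combined ones for this list, and the highest. Without it 8 members were lower, in a fit where 702 of 15912 genes were lower in all. Krt18, a keratin of the epithelial areas of biphasic synovial sarcoma, was at 0 in combined N49, 78774 and 78780 and at 1.89 CPM in 78777, against 26.8, 10.0 and 5.63 CPM in SS18-SSX tumours (-4.83 ± 1.69, adjusted p = 0.101).

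Shares called among markers of other cells are to be read against 4.7% higher and 4.67% lower over all genes. Of 25 mature skeletal muscle genes 0 were called. Their summed level was 5366, 552, 1085 and 577 CPM in combined tumours and 17825, 606 and 628 CPM in SS18-SSX tumours, with A and N49 the highest, and the median log2 fold change was -2.03. Of 20 macrophage and myeloid genes 1 was higher (5.0%), the scavenger receptor Msr1, and its call was lost in every fit that left out a library. The list summed to 667 to 1416 CPM in combined tumours and 293 to 1171 CPM in SS18-SSX tumours. Mmp12 above is also made by macrophages, and the part of such cells in its difference was not tested. Of 7 tested B and plasma cell genes 1 was lower, Pax5, at 0 to 0.367 CPM in combined tumours and 3.47 to 5.78 CPM in SS18-SSX tumours. Immunoglobulin Igkc stood at 199.5 CPM in SS18-SSX library A and at most 2.28 CPM in the other 6 libraries. Of 20 endothelial genes 2 were lower (10.0%), Eng (-1.80, adjusted p = 0.0312) and Erg (-2.18, adjusted p = 0.0455). After removal of that trend Eng was at -1.45 and Erg at -2.08, short of the threshold (adjusted p = 0.0636 and 0.0667). Dpt was the 1 called gene of 26 of fibroblasts (3.85%) and Comp the 1 of 15 of cartilage and bone (6.67%), both lower. Of 18 myogenic regulators 1 was higher and 0 lower. No member was called among the 10 tested neutrophil and mast cell, 6 T and NK cell, 6 adipocyte, 6 red blood cell, 7 Schwann cell, 3 keratinocyte, 14 pericyte, 29 interferon-stimulated, 20 MHC presentation and 7 mitochondrially encoded genes. Without N49, 5 neutrophil and mast cell genes were lower, in a fit where 1683 of 15918 genes were lower in all.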

How the data were processed

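The labels' protocols give RNeasy Mini extraction of frozen tumour and TruSeq Stranded mRNA library preparation. Among the tools in the submitters' processing notes are STAR 2.7.5a and featureCounts, with mm10 as the build and no role stated for any. The authors deposited raw whole-number counts per gene for 48440 Ensembl IDs, of which 48058 matched GENCODE M21 (GRCm38, the assembly of mm10). The 7 libraries were taken by title, and gene lists and members were chosen with earlier results of these data known.

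Genes were filtered with filterByExpr (minimum count 10, minimum total 15), which kept 16262 genes with 99.74% of counts. edgeR 4.0.16 in R 4.3.3 scaled libraries by TMM, fitted 1 quasi-likelihood model with group as the only term, and adjusted p over all tested genes. SE is the absolute log2 fold change divided by the square root of F. The common biological coefficient of variation was 0.617. Alternatives were RLE and upper-quartile scaling, no filter, DESeq2 1.42.0, thinning to 8642648 counts, leaving out each library, and removal of each library's smooth length and GC trend (mgcv 1.9.3), run uncentred first and then centred. The centred version was adopted after the uncentred one had shifted all genes. The self-test on drawn counts (15833 genes tested, this comparison) was first run with changes of 1 and 2 log2 units only, and a size of 6 was added because too few of those were recovered. It called 0 of 65 genes changed by 1, 4 of 60 changed by 2 and 52 of 61 changed by 6 log2 units, with 1 false call. Only these genes were changed in the drawn counts, whereas 1525 genes were called in the data. The adjustment was therefore stricter in the self-test, and its recovery does not give the share of small changes missed in the data.

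Named genes were Smarcb1, Ss18 and Tle1, the 10 largest called changes each way among protein-coding genes of at least 10 CPM whose groups did not overlap, up to 4 called members per list by p (or the 1 with the smallest p), every called BAF subunit, and the 3 genes with most counts (Rn7sk, Rpph1 and Gm26917, none called). Other list members are named where a count holds few genes or for their known role, after their values were seen. Pairs of libraries within a group differed far beyond sampling noise (reduced chi-square 127 to 425), so none was counted as a repeat sequencing of another library. This measure cannot tell whether a pair came from the same tumour or animal. SS18-SSX libraries B and N2 had the lowest value, 127, and the highest correlation, 0.969. Some named genes are not reported here.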

Additional observations from a re-analysis of the deposited data

Results flagged for a closer look

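In 17 of 166 named genes and lists (10.2%, where chance alone flags about 1 in 20) 1 combined library lay far from the other 3, measured as its gap to the nearest library over the range of all 4 on the log2(CPM + 0.5) scale. Library 78780 lacked the Y-linked transcripts of the other 3, with gaps of 0.953 for Kdm5d, 0.953 for Eif2s3y, 0.932 for Uty and 0.915 for Ddx3y, and it was also low for Erg (0.952) and high for the list of myogenic regulators (0.846). Library 78777 was high for Fzd5 (0.832), Lhx6 (0.876), Otof (0.927), Nkx6-2 (1.0) and Krt18 (1.0), and for the lists of other developmental transcription factors (0.831), epithelial genes (0.875) and red blood cell genes (0.854). Library N49 was low for Klf14 (0.858), Rpl19 (0.851) and the list of Hedgehog and Notch genes (0.858).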

How the results depend on the processing

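The counts of 765 higher and 760 lower genes moved by more than 1.5 times with DESeq2 (2145 and 1747, of which 1792 and 1562 by at least 1 log2 unit), with the centred length and GC trend removed (216 and 438, of which 202 and 433) and, for higher genes, with the uncentred trend removed (1261). The length and GC removal was chosen after seeing the data and run in 2 versions. Leaving out 1 library gave 0 to 1853 higher and 1 to 1683 lower genes, and 0 to 1656 and 1 to 1603 by at least 1 log2 unit. RLE and upper-quartile factors, no filter and thinning kept both counts within 1.5 times. The median log2 fold change of all genes, 0.04, was -0.062 with upper-quartile factors, -0.11 with no filter, 0.082 with the centred and 0.35 with the uncentred trend removed, and -0.045 to 0.12 without 1 library. No named gene reversed its sign across a call in any fit. Of 117 named genes 35 lost their call with the centred trend removed, 19 with the uncentred one, 98 without SS18-SSX library B and 97 without N2. The 117 include genes such as Tle1 and Ss18 that had no call to lose. Smarcb1 was the only named gene that kept its call without B, and Smarcb1 and Rprl2 the only ones without N2. The cause was not tested. No paired analysis was possible because the labels give the groups no shared replicate numbers. Thinning every library to the depth of the shallowest gave 742 higher and 761 lower genes.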
